A study of Bos taurus with 35 samples.

Results

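GADD45B encodes a small acidic protein of the GADD45 family (growth arrest and DNA damage inducible). It was followed in beef *longissimus thoracis* (LT), a back muscle, over time after slaughter. It was 1 of 27607 genes in the table of read counts, with the identifier ENSBTAG00000025462, and it was selected on its measured level, which was above that of 0 h at the later time points in these same samples. Every comparison of GADD45B with 0 h is therefore given as a description, without a test. The 35 samples came from 7 British × Continental crossbred heifers of 525 to 635 kg, and each carcass was sampled at 5 time points *post-mortem* while it hung in a refrigerated drip cooler. The 0 h samples, taken 45 min after death, are the control group, and the groups at 6, 24, 48 and 72 h are the same 7 left-side carcasses later, without any treatment. Time after death and time in the cooler cannot be told apart in this design, and cores taken from 1 carcass at successive times are not the same piece of tissue. Libraries held between 20568418 and 104275821 counted reads (median 40133660).

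GADD45 proteins have no known enzymatic activity and act by binding other proteins. They bind the kinase MAP3K4 upstream of the p38 and JNK kinases, the cyclin B1 kinase complex and PCNA, and they have been linked to active DNA demethylation. GADD45B is an early response gene to TGF-beta, to NF-kB activity and to cell stress, and its paralogue GADD45A is known from denervated and wasting skeletal muscle.

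Levels are given as CPM, the reads of a gene scaled to a common library size after TMM normalization. At 0 h, GADD45B stood at 10.03 CPM in the lowest animal, 13.0 CPM in the median animal and 18.1 CPM in the highest, with a mean of 13.8 ± 2.86 CPM (SD, n = 7). At 6 h, the lowest, median and highest animals stood at 37.9, 62.5 and 88.3 CPM, and the mean was 61.8 ± 18.3 CPM. The 0 h and 6 h groups did not overlap. At 24 h, the corresponding values were 31.8, 53.5 and 89.9 CPM, with a mean of 59.0 ± 23.5 CPM. At 48 h they were 51.5, 68.9 and 106.5 CPM, with a mean of 72.6 ± 20.9 CPM. At 72 h they were 30.8, 108.7 and 142.3 CPM, with a mean of 89.4 ± 42.4 CPM. All 28 samples after 0 h were above the highest 0 h sample, while the 4 later groups overlapped one another widely. The lowest read count of the gene was 283, for which an exact Poisson interval at 95% runs from 251 to 318 and covers counting error only, and the highest was 10848.

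The carcasses took different courses. Animal 202 stood at 13.0, 88.3, 72.1, 95.5 and 142.3 CPM at 0, 6, 24, 48 and 72 h, the highest of the 7 at 6 and 72 h. Animal 107 stood at 15.2, 76.2, 85.5, 106.5 and 114.4 CPM, with a higher level at every successive time point. These were the only animals above the time point mean of log2 CPM at all 4 later time points.

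Animal 101 alternated, at 12.9, 37.9, 89.9, 52.96 and 108.7 CPM. Animal 201 stood at 11.1, 62.5, 31.8, 68.9 and 115.8 CPM, and animal 104 at 18.1, 58.0, 42.3, 70.1 and 76.4 CPM. Both had their lowest later level at 24 h, where animal 101 was the highest of the 7.

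Animal 103 stood at 16.2, 40.6, 53.5, 62.7 and 30.8 CPM. Animal 206 stood at 10.03, 69.4, 37.9, 51.5 and 37.5 CPM. These 2 animals were the lowest at 72 h, and the other 5 had their own highest level there, whereas that of animal 103 was at 48 h and that of animal 206 at 6 h. Measured against the animal's own 0 h sample, the level was 2.51-fold to 6.92-fold in the 6 h samples and 2.33-fold to 6.98-fold in those of 24 h. It was 3.87-fold to 7.34-fold after 48 h and 1.9-fold to 10.9-fold after 72 h.

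**Figure D1:**
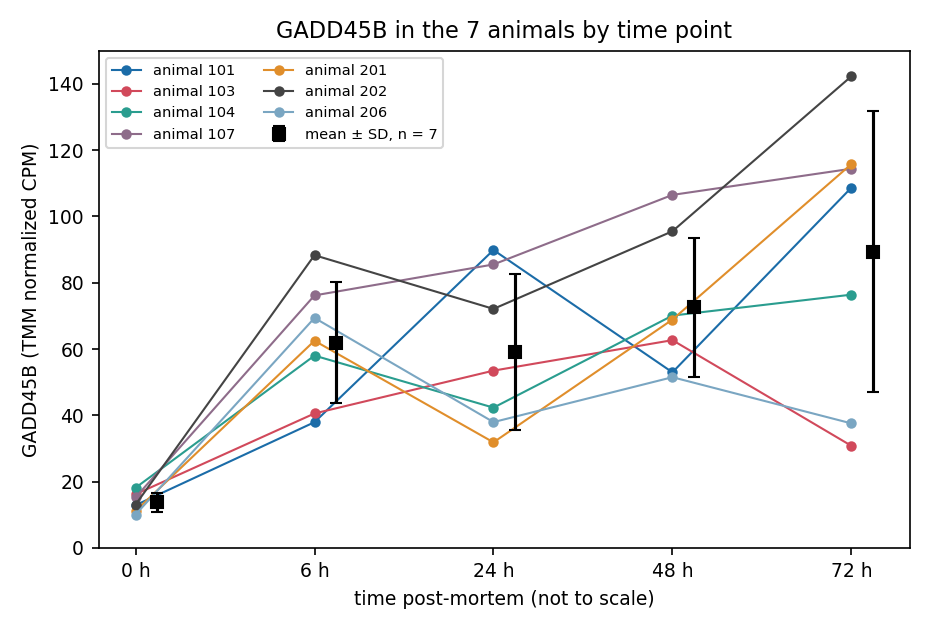
GADD45B in CPM (vertical axis, linear scale) by time *post-mortem* in hours (not drawn to scale), with 1 line for each of the 7 animals. Black squares with bars give the mean and SD at each time point. All animals lie between 10.03 and 18.1 CPM at 0 h and between 30.8 and 142.3 CPM later, and the lines cross after 6 h.

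In the model fitted over all 35 samples with animal as a block, the log2 fold change of GADD45B against 0 h was 2.14 (SE 0.245) for the 6 h samples, 2.04 (SE 0.244) for those of 24 h, 2.35 (SE 0.246) for those of 48 h and 2.59 (SE 0.249) for those of 72 h. These values are 4.42-fold, 4.11-fold, 5.09-fold and 6.04-fold. Over the 14630 genes tested, 0.349%, 0.725%, 2.96% and 9.8% were upregulated at these successive time points, where upregulated means a false discovery rate (FDR) below 0.05 and a fold change above 1.5. The number of genes with a larger log2 fold change than GADD45B was 10, 9, 11 and 10, in the same order. Among the 6995 genes of at least 10 CPM on average, 2 genes exceeded it at each of the 4 time points. These ranks describe the choice of the gene and support nothing further.

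The steps between later time points do not involve the 0 h samples and were tested with edgeR's quasi-likelihood test, although the later samples are still those in which the gene was chosen. From 6 h to 24 h the log2 fold change was -0.11 (SE 0.233, 95% interval -0.58 to 0.37, FDR 0.95 by edgeR), and 3 of 7 animals were higher at 24 h. This direction turned to 0.00507 without animal 201 and to 0.0492 without animal 206. From 24 h to 48 h it was 0.31 (SE 0.232, interval -0.16 to 0.78, FDR 0.37 by edgeR), with 6 of 7 animals higher at 48 h. From 48 h to 72 h it was 0.25 (SE 0.231, interval -0.23 to 0.72, FDR 0.43 by edgeR), with 5 of 7 animals higher at 72 h. None of the 3 steps passed the threshold, at which 0.622%, 19.4% and 33.1% of all genes tested passed in either direction. A p that misses the threshold does not show equal levels, and the intervals reach a log2 difference of 0.78.

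The order of the fitted levels was 0, 24, 6, 48 and 72 h. The levels at 6 h and 48 h, neighbours in that order but not in time, differed by 0.20 (SE 0.231, interval -0.27 to 0.68, FDR 0.52 by edgeR), where 33% of all genes passed. The ends of the later course, 6 h and 72 h, differed by 0.45 (SE 0.232, interval -0.02 to 0.93, FDR 0.091 by edgeR), with 5 of 7 animals higher at 72 h, where 64.1% of all genes passed. These last 2 comparisons were added after the values had been seen. An exact permutation test that flips the signs of the 7 within-animal differences (two-sided, smallest possible p 0.016) gave p = 0.72, 0.19 and 0.56 for the 3 steps, 0.12 for 48 h against 6 h and 0.23 for 72 h against 6 h.

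GADD45B differed more between animals than most genes did. The SD of its log2 CPM over the 7 animals was 0.301, 0.453, 0.593, 0.398 and 0.868 at 0, 6, 24, 48 and 72 h. The median SD of genes of at least 10 CPM was 0.15, 0.155, 0.181, 0.192 and 0.22. The gene therefore had a larger SD than 88.2%, 95.7%, 97.8%, 88.4% and 98.6% of those genes. Its biological coefficient of variation in the model was 0.298, against a median of 0.102 over the genes tested, and 97% of them had a lower one. Library size was weakly related to the level, with r = -0.144 over the 35 samples, and r = -0.299 after animal and time point means had been removed; its part in the spread was not tested.

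Among the relatives of the gene, GADD45G (ENSBTAG00000003033), a second stress-induced member of the family, was upregulated at every later time point. Over all genes tested, 0.349%, 0.725%, 2.96% and 9.8% were upregulated at these time points. A name was at hand only for genes found differentially expressed at some time point. That a named relative was called is thus largely fixed by the naming, and nothing about the family is read from it. At 0 h its lowest, median and highest animals stood at 16.9, 45.2 and 54.4 CPM, and at 72 h at 57.1, 97.3 and 155.1 CPM, so that these groups did not overlap. The groups at 6, 24 and 48 h overlapped that at 0 h, with means of 64.1 ± 20.4, 62.7 ± 20.5 and 70.5 ± 19.7 CPM against 40.3 ± 13.4 CPM (SD, n = 7). Within animals the direction was uniform, with GADD45G above its own 0 h level in 7 of 7 animals at each of the 4 time points. The shares of all genes tested with so uniform a direction, or with groups that do not overlap, were not counted. Nothing particular to GADD45G is therefore read from either.

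The log2 fold change of GADD45G was 0.68 (SE 0.135, FDR 0.0064 by edgeR) for 6 h, 0.64 (FDR 0.0038) for 24 h, 0.82 (FDR 2.5e-05) for 48 h and 1.37 (SE 0.137, FDR 1.4e-09) for 72 h. The call at 6 h was lost without animal 202 (0.58), and that at 24 h without animal 101 (0.47), because the fold change fell below 1.5. Without animal as a block, GADD45G kept its fold change and lost both calls, with an FDR of 0.75 at 6 h and 0.41 at 24 h by edgeR. From 48 h to 72 h the log2 fold change of GADD45G was 0.55 (SE 0.134, FDR 0.0031 by edgeR). It passed the FDR threshold, as 33.1% of all genes did at this step, but its 1.47-fold change was below 1.5, so it was not called.

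GADD45GIP1 (ENSBTAG00000015117) encodes a protein of the mitochondrial ribosome that also binds GADD45 proteins. Its mean was 19.4 ± 2.27 CPM at 0 h and 34.1 ± 8.84 CPM at 72 h. It was upregulated at 72 h, with a log2 fold change of 0.80 (SE 0.0994, FDR 5.8e-08 by edgeR). At 6 h and 24 h its values were 0.16 (FDR 0.49) and 0.22 (FDR 0.19), and the value of 0.45 at 48 h (FDR 0.00056) stayed below the fold change threshold. GADD45A, the remaining paralogue, has no identifier among the named genes and was not analysed here.

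**Figure D2:**
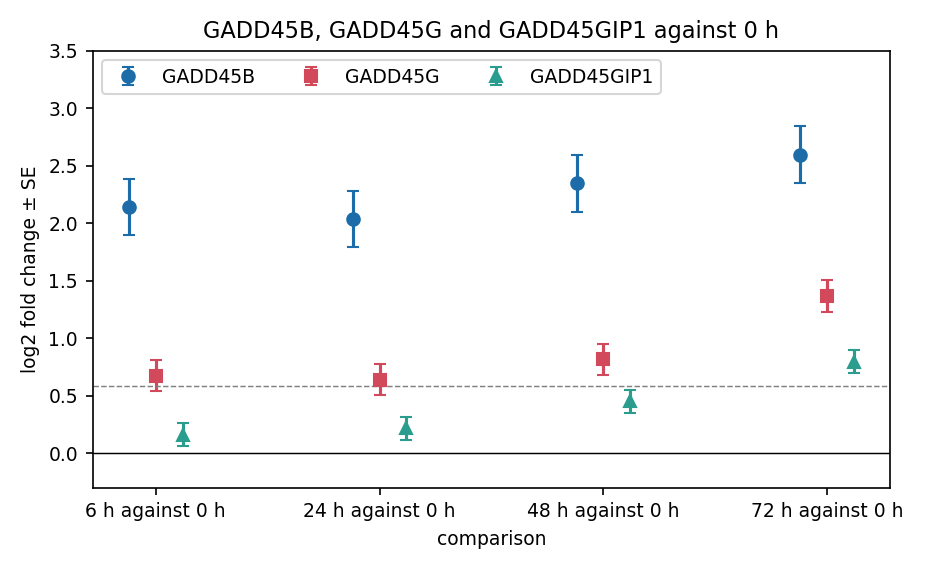
Log2 fold change against 0 h (vertical axis) at 6, 24, 48 and 72 h for GADD45B, GADD45G and GADD45GIP1, with bars for the SE of the model and a dashed line at a fold change of 1.5. GADD45B lies between 2.04 and 2.59, GADD45G between 0.64 and 1.37, and GADD45GIP1 between 0.16 and 0.80.

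Genes that act before or after GADD45 proteins were looked at as 10 lists with 142 members besides GADD45B. A name could be attached to 31 of them, since symbols were at hand only for genes called differentially expressed (DE) at some time point. Members without a name enter the shares below as not called, although their calls are unknown, so the shares of the 142 are lower bounds, and their base differs from that of the shares of all genes tested. Since a name was given only to genes called at some time point, that the named members of a list were called is largely fixed by the naming. At 6 h, 3 of the 142 were upregulated and 1 downregulated, 2.11% and 0.704%, where 0.349% and 0.185% of all genes tested were. At 24 h, 4 were upregulated (2.82%, against 0.725% of all genes) and 0 downregulated (against 0.95%). At 48 h, 5 were upregulated and 10 downregulated, 3.52% and 7.04%, against 2.96% and 6.3% of all genes. At 72 h, 12 were upregulated and 18 downregulated, 8.45% and 12.7%, against 9.8% and 15.4%. Nothing about the lists is read from these shares.

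Of the 19 genes of the TGF-beta and SMAD pathway, 5 had a name, and those 5 were downregulated at 72 h, where 15.4% of all genes tested were. TGFBR1, the type I receptor, had a mean of 7.95 ± 1.29 CPM at 0 h and 3.05 ± 0.993 CPM at 72 h, and a log2 fold change of -1.42 (SE 0.14, FDR 1e-09 by edgeR). SMAD3, the transcription factor that the receptor activates, fell by 1.2 (FDR 8e-07) and ACVR1B, an activin receptor, by 0.96 (FDR 4.3e-07). At 48 h, 2 of the 5 were downregulated, 10.5% of the list, where 6.3% of all genes tested were. They were TGFBR1 by 0.94 (FDR 5.3e-06) and SMAD3 by 0.61 (FDR 0.0049), and the latter call was lost when animal 101, 107 or 206 was left out.

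Of the 20 genes of the NF-kB pathway, only CXCL8, a chemokine that draws neutrophils, had a name. It was upregulated at all 4 time points, with log2 fold changes of 1.31 (SE 0.27, FDR 0.0072 by edgeR), 0.96 (FDR 0.03), 0.94 (FDR 0.0074) and 0.93 (FDR 0.0037). Its level was low throughout, 0.292 ± 0.119 CPM at 0 h and 0.677 ± 0.361 CPM at 6 h. The call at 24 h was lost in 6 of the 7 fits that left out 1 animal, that at 48 h without animal 107, and with counts thinned to the smallest library the calls at all 4 time points were lost, with an FDR of 0.088, 0.15, 0.05 and 0.069 by edgeR.

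The p38 and JNK cascade had 4 named genes of 21, which were downregulated at 72 h. They are 19.0% of the list, where 15.4% of all genes tested were downregulated. MAPK9, also called JNK2, fell by 1.29 (SE 0.15, FDR 2.8e-08 by edgeR), from 16.1 ± 2.15 to 6.74 ± 2.59 CPM. DUSP16, a phosphatase that acts on JNK, fell by 1.05 (FDR 2.5e-07), and MAP3K7, a kinase that relays TGF-beta and cytokine signals, by 0.69 (FDR 7.1e-08). None of the 4 had a call at 6 h or 24 h. At those time points 0.185% to 0.95% of all genes tested were called in a given direction, so nothing is read from this count.

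Of 18 genes of the p53 list, the 4 named were downregulated at 48 h and 72 h, where 6.3% and 15.4% of all genes tested were. ZMAT3, a p53 target that binds RNA, fell by 1.85 at 72 h (SE 0.21, FDR 1.6e-08 by edgeR), from 3.44 ± 0.602 to 0.976 ± 0.603 CPM. MDM2, the ubiquitin ligase that p53 induces and that degrades p53, fell by 1.46 (FDR 8.2e-09), and RRM2B, a p53-induced ribonucleotide reductase subunit, by 1.37 (FDR 1.2e-09). At 48 h the call for MDM2 (-0.73) was lost without animal 206, and that for ZMAT3 (-0.86) with thinned counts (FDR 0.052 by edgeR).

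In the list of immediate early and stress response genes, 5 of 29 had a name. JUNB, a component of the AP-1 transcription factor, was upregulated at all 4 time points, with log2 fold changes of 0.69, 0.94, 1.21 and 1.32 (FDR 0.0092, 0.0001, 6.3e-07 and 7.3e-09 by edgeR) and means of 54.6 ± 18.6 CPM at 0 h and 137 ± 45.6 CPM at 72 h. The 6 h call of JUNB was lost without animal 107 (FDR 0.082). ATF3, a transcription factor induced by stress, and FOS, the partner of JUN proteins in AP-1, were upregulated only at 72 h, by 0.98 (FDR 0.00022) and 0.76 (FDR 0.004). Their values at 6 h were 0.0035 and 0.08, and FOS lost its call at 72 h without animal 202 (0.42). KLF2, a factor induced by blood flow in vessel walls, was downregulated at 6 h by 0.63 (SE 0.11, FDR 0.0015 by edgeR), from 60.5 ± 7.55 to 39.2 ± 5.68 CPM. That call was lost without animal as a block (FDR 0.087 by edgeR). KLF2 had no call later, but its values of -0.443 at 24 h (FDR 0.013) and -0.437 at 48 h (FDR 0.002) missed only the fold change threshold.

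The integrated stress response had 2 named genes of 12. DDIT3, also called GADD153 or CHOP, is a transcription factor that shares the naming but not the sequence of the GADD45 family. It was upregulated from 24 h, by 0.82, 0.92 and 1.31 (FDR 0.00089, 2.1e-05 and 1.4e-08 by edgeR), and its mean went from 7.17 ± 1.16 CPM at 0 h to 18.7 ± 7.47 CPM at 72 h. PPP1R15A, also called GADD34, which ends the response by directing a phosphatase to a translation factor, was upregulated by 0.64 at 48 h (FDR 3.8e-05) and 0.94 at 72 h (FDR 2.3e-08). Its 48 h call was lost without animal 107 (0.57).

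Of 8 genes of active DNA demethylation, only TET1, which oxidises methylcytosine, had a name. It was downregulated by 0.78 at 48 h and by 1.37 at 72 h (SE 0.14, FDR 3.1e-09 by edgeR). Of the 4 cell cycle partners, CCNB1, the cyclin B1 that GADD45 proteins bind, was upregulated at 72 h by 0.78 (FDR 0.0064) from a level of 0.305 ± 0.0688 CPM, and lost the call without animal 206 (FDR 0.055) and with counts thinned to the smallest library (FDR 0.15).

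The muscle atrophy and denervation list had 6 named genes of 12, of which 4 were downregulated and 2 upregulated at 72 h, where 15.4% and 9.8% of all genes tested were. FBXO32, the ubiquitin ligase atrogin-1, fell by 1.74 (SE 0.17, FDR 6.3e-10 by edgeR), from 173 ± 48.6 to 53.5 ± 20.8 CPM. FOXO3, the transcription factor that drives it in wasting muscle, fell by 1.48 (FDR 2.6e-08), and MUSK, the receptor kinase of the neuromuscular junction, by 1.21 (FDR 1.4e-07). None of the 6 had a call at 6 h or 24 h, and nothing is read from this count either. Over all genes tested, 0.185% to 0.95% were called in a given direction there.

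**Figure D3:**
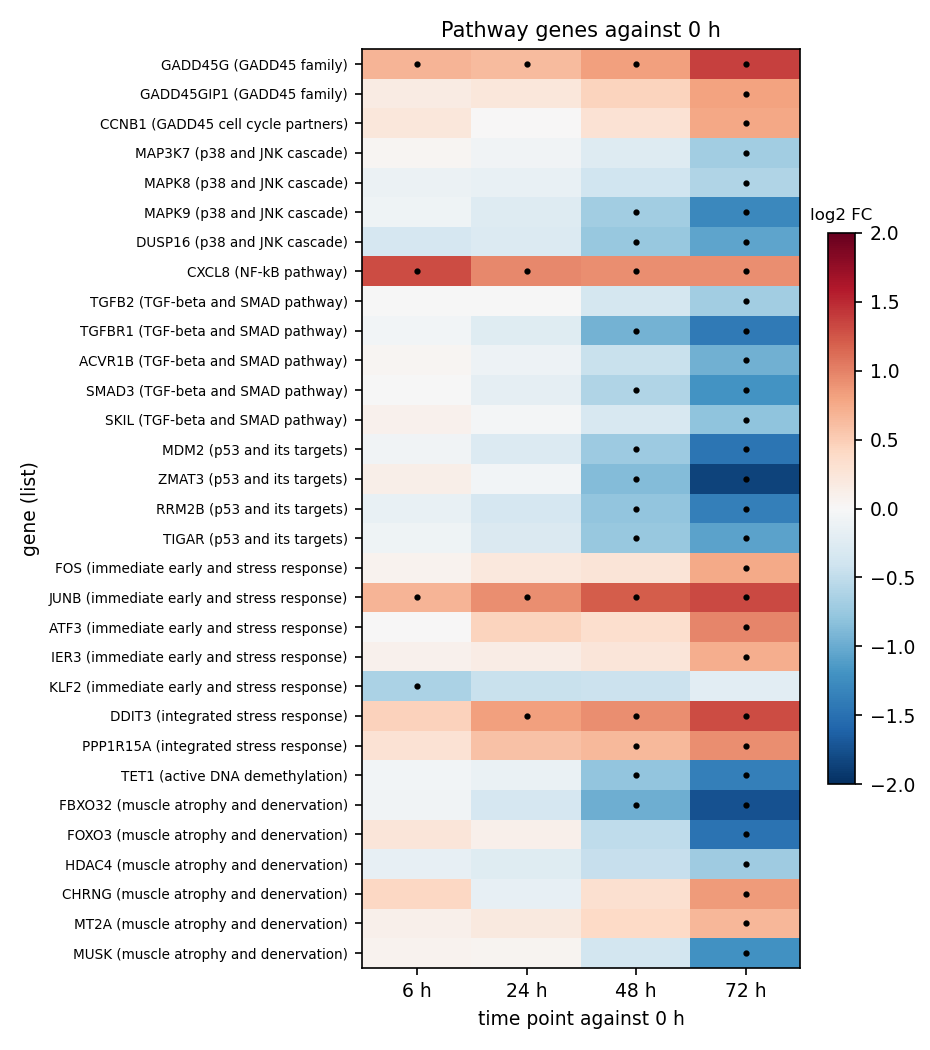
Log2 fold change against 0 h (colour, red higher and blue lower) of the 31 named pathway genes (rows) at 6, 24, 48 and 72 h (columns), with a dot where a gene was called. Dots are few at 6 h (4) and 24 h (4), while at 72 h there are 12 upregulated and 18 downregulated genes; genes without a name are not drawn.

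Markers of other cells in the muscle moved over the same time. Summed levels over the named markers of a list are given as the median and range of the 7 animals. Markers, like the pathway genes, had a name only if called at some time point. That the named markers were called is thus largely fixed by the naming. Muscle fibre genes (4 named of 10, CKM among them) went from 33400 CPM (29700 to 36200) at 0 h to 58100 CPM (48500 to 71300) at 72 h. All 4 were upregulated at 72 h, where 9.8% of all genes tested were. Members without a name have no value here, so the whole list was not checked against the tissue label. Macrophage genes (6 of 8) went from 88.1 CPM (41.5 to 137) at 0 h to 71.6 CPM (58.4 to 122) at 6 h and 27 CPM (14.9 to 47.9) at 72 h. Of the 6, 0 were called at 6 h, where 0.349% of all genes tested were upregulated and 0.185% downregulated. At 72 h, 6 were downregulated, where 15.4% of all genes tested were.

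Adipocyte genes (6 of 6) went from 319 CPM (151 to 415) to 227 CPM (113 to 592) at 6 h, 120 CPM (88.1 to 148) at 24 h and 92.4 CPM (39.4 to 138) at 72 h. Of the 6, 0 were called at 6 h, 5 were downregulated at 24 h and 6 at 48 h and 72 h, with a median over the list of -4.62 on the log2 scale for 24 h. Over all genes tested, 0.185%, 0.95%, 6.3% and 15.4% were downregulated at 6, 24, 48 and 72 h. Most of the sum that was left at 72 h came from PLIN4, a lipid droplet protein gene, at 149 CPM at 0 h and 82.1 CPM at 72 h, whereas ADIPOQ, the adiponectin gene, stood at 25.4 and 0.131 CPM. T and NK cell genes (7 of 9) went from 6.2 CPM (5.28 to 10.8) to 5.89 CPM (4.81 to 15.3) at 6 h and 13.5 CPM (11.4 to 15.4) at 72 h. The fibroblast list had 1 named gene of 6, at 53.8 CPM (31.9 to 66.2) at 0 h, 56.7 CPM (46.1 to 63.2) at 6 h and 30.5 CPM (13.7 to 33.7) at 72 h.

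The neutrophil list had 1 named gene of 6, S100A9. Its median was 0.288 CPM at 0 h, 0.444 CPM at 48 h (up to 1.91 CPM) and 0.178 CPM at 72 h. S100A9 was upregulated at 48 h (log2 fold change 0.994, FDR 0.044 by edgeR), where 2.96% of all genes tested were. It had no call against 0 h at the other time points. The 2 named erythroid genes of 4 had medians of 0.217 CPM at 0 h, 5.02 CPM at 48 h (up to 72.1 CPM) and 0.406 CPM at 72 h. The 6 endothelial markers had no name here. In bulk tissue, fewer cells of a type and less RNA per cell cannot be told apart, and the part of these cells in the level of GADD45B was not tested.

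Genes were ranked by how closely their log2 CPM followed that of GADD45B over the 35 samples, after each animal's mean had been removed. The 2581 genes ranked had a symbol and at least 1 CPM on average, and their median r was -0.381. A symbol was at hand only for genes called DE at some time point. The ranking and its median thus do not cover most of the 14630 genes tested. The points share libraries and, at each time point, the difference between 0 h and later samples, so r is a description of likeness only. PNMT, the enzyme that makes adrenaline from noradrenaline, came first with r = 0.955, and leaving out 1 animal at a time gave 0.946 to 0.963. Next came 5.8S ribosomal RNA (0.908), the phosphate transporter SLC20A1 (0.9), the small nucleolar RNA U3 (0.89), PARP3 (0.872), the transcription repressor BHLHE40 (0.862), the peptide hormone ADM (0.859), the scavenger receptor SCARF1 (0.84), GADD45G (0.839) and the cholesterol transporter STARD3 (0.817). Rows of 5.8S ribosomal RNA and U3 stand for repeated gene copies and are uncertain. Over all genes tested, 25 besides GADD45B, STARD3 among them, had an r at least as high as that of STARD3. Of these, 11 had no symbol, and those with a symbol beyond the 10 named here were below 1 CPM on average.

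At the other end were FZD4, a Wnt receptor, with r = -0.789, the microRNA gene bta-mir-29c (-0.742), C29H11orf95 (-0.718), LRBA (-0.709) and ZFYVE26 (-0.701). Removing the time point means as well leaves how animals deviate from the mean of their time point. On these deviations PNMT was again highest, with r = 0.826, followed by ADM (0.746), ZNF112 (0.737), HOXD4 (0.722) and BHLHE40 (0.721), while the median over the ranked genes was 0.209. ZNF112 and HOXD4 nevertheless stood below 0 h at each later time point in the model, unlike GADD45B, with log2 fold changes of -0.73 and -0.63 at 72 h. By contrast, U3 (0.0931), SCARF1 (-0.00987) and STARD3 (-0.2) followed GADD45B over time and hardly or inversely in these deviations. Over the 28 samples after 0 h alone, with animal means removed, r was 0.869 for PNMT, 0.788 for BHLHE40, 0.66 for GADD45G, 0.633 for SLC20A1, 0.614 for PARP3, 0.611 for ADM and 0.583 for 5.8S ribosomal RNA. It was lower for U3 (0.332), SCARF1 (0.206) and STARD3 (0.104), and 5 of the 10 genes stayed among the top 10.

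The course of PNMT in single carcasses is given as a description, since PNMT was picked for its likeness over these same samples. In animal 101 it stood at 1.56, 3.93, 7.95, 5.51 and 11.4 CPM at the 5 time points, alternating as GADD45B did there. In animal 103, which had the lowest GADD45B at 72 h, it stood at 2.58, 4.53, 4.7, 6.11 and 3.5 CPM, with its highest level at 48 h as well. In animal 202, which had the highest GADD45B at 72 h, PNMT went from 1.01 to 17.6, 8.17, 11.8 and 22.6 CPM. Animals 103 and 202 thus held the lowest and the highest PNMT value at 72 h, as they did for GADD45B. In animal 206 the courses parted, since PNMT was highest at 72 h (8.87 CPM) and GADD45B at 6 h. They parted in animal 104 as well, where PNMT was highest at 48 h (10.2 CPM, against 9.93 CPM at 72 h) and GADD45B at 72 h.

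The log2 fold change of PNMT against 0 h was 1.92 (SE 0.293), 1.65, 2.09 and 2.58 (SE 0.293) for the 4 later time points, given without a test because the gene was picked for its likeness. ADM had 0.63, 0.59, 0.55 and 0.63, and BHLHE40 had 0.81, 0.69, 0.83 and 0.82. All 3 were higher at every later time point in the model, with smaller values for ADM and BHLHE40. In animal 103, ADM at 72 h was 14 CPM, below its 0 h level of 20.1 CPM.

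**Figure D4:**
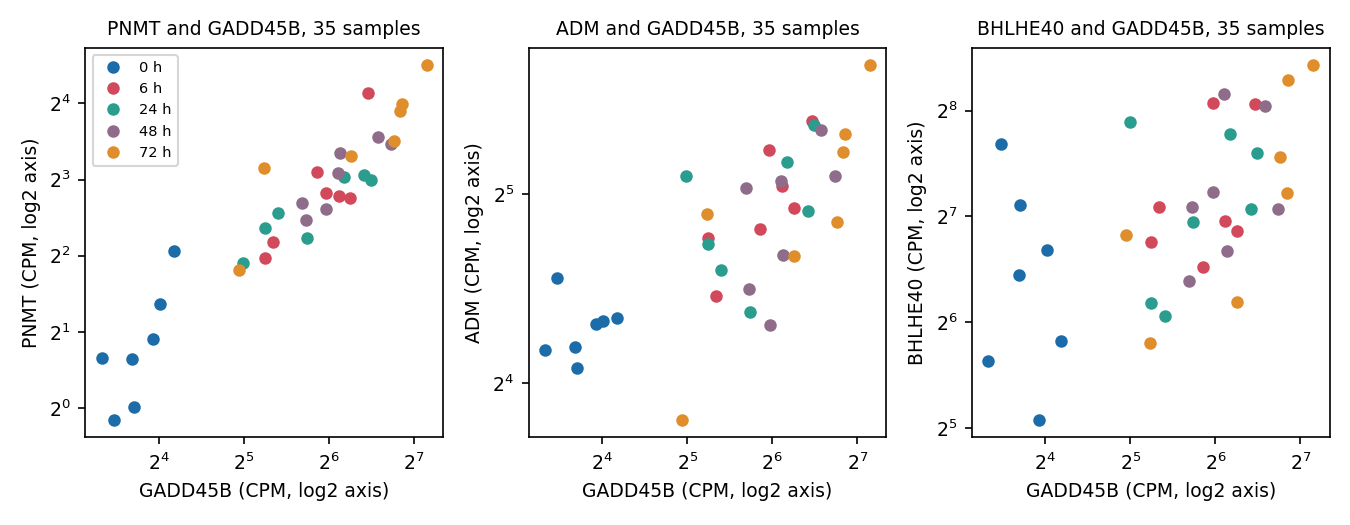
PNMT, ADM and BHLHE40 (vertical axes, CPM on a log2 scale) against GADD45B (horizontal axes, CPM on a log2 scale), with 1 point per sample coloured by time point. Animal means are not removed here; the 0 h samples lie apart on the left between 10.03 and 18.1 CPM of GADD45B, and the later samples spread along the diagonal most closely for PNMT.

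By position, GADD45B lies on chromosome 7 between GNG7 and LMNB2 in the gene order of the RefSeq annotation of ARS-UCD2.0, an assembly other than the one used for counting. Of the 10 protein-coding genes on each side, 3 had a name among the DE genes, and the other 17 have no value here. Of the 3, 0 were called at 6, 24 or 48 h, where 0.185% to 6.3% of all genes tested were called in a given direction, so nothing is read from this count. At 72 h, TLE6, a member of a family of transcription corepressors, was upregulated by 0.69 (FDR 0.0044 by edgeR), LSM7, an RNA-binding protein of the spliceosome, was upregulated by 0.96 (FDR 2e-10), and ZNF554, a zinc finger gene, was downregulated by 0.63 (FDR 1e-05). PNMT lies on chromosome 19 in the same annotation, 2 protein-coding genes away from STARD3, with the sarcomere gene TCAP between them.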

How the data were processed

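RNA-Seq counts of 35 LT samples were analysed. Per the labels and the study's methods, the authors trimmed reads with Trimmomatic (0.39), mapped them to ARS-UCD1.2 with STAR (2.7.0f) and counted reads per gene of Ensembl release 95 with featureCounts (1.6.4), and the deposited values are raw counts, neither normalized nor filtered. The methods call the counting strand specific, and the deposited counts are labelled as reverse strand. The methods also print an option for unstranded counting. The lowest and highest library totals given above match, however, the range that the paper reports for the sense strand. The deposited counts are thus those that the paper calls sense strand, and how the printed option was applied is not known. No animals were pooled.

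Counts were fitted with edgeR (4.0.16, R 4.3.3). The filter was filterByExpr, grouped by time point with a minimum count of 10, and left 14630 genes. TMM factors were 0.846 to 1.11. The quasi-likelihood model had animal as a block and shared 1 dispersion per gene over the 5 time points. Benjamini-Hochberg adjustment covered all genes tested, and a gene was called DE when its fold change exceeded 1.5 at FDR below 0.05. Intervals are at 95%. Log2 CPM used a prior count of 2. The scripts were tested on simulated data.

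The 5 samples of a number come from 1 carcass, which pairs them. Their deviations from time point means had r of 0.29 to 0.77 in 70 pairs (median 0.58), against a median of -0.12 between animals.

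GADD45B, the lists and the tests were chosen with earlier results of these data known. Named genes were GADD45 family members, in each pathway list the 3 largest absolute log2 fold changes at 72 h and any gene called at 6 h, the 10 highest and 5 lowest r, and the 5 highest r with both means removed. Genome neighbours and single markers were named in addition, after their values were seen. Symbols came from the study's supplementary table of DE genes, which gave 3640 identifiers and 3106 symbols. The copy used here held 2068 of the 2256 genes downregulated at 72 h, and 1833 of them had a symbol. It held all 1434 genes upregulated at 72 h, and 1160 of them had a symbol. A list gene without a name may thus be unchanged, untested, without a symbol or among the missing rows. The authors' own fold changes and p-values in that table were not used. Gene lengths were not used here, so levels of different genes were not compared.

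Alternatives were DESeq2 (1.42.0), RLE factors, other filters on low counts, no block, each animal left out, only the time points compared, and counts thinned to 20568418 reads.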

Additional observations from a re-analysis of the deposited data

Results flagged for a closer look

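Among 120 groups of 7 samples (24 genes named for the family or for likeness, at 5 time points), 7 groups held 1 animal that stood apart from the other 6 by Dixon's criterion at 95% on log2 CPM, where chance gives about 6. None of them concerned GADD45B itself. GADD45G was lowest in animal 201 at 24 h, with 22.6 CPM against 50.0 CPM in the next animal, and at 48 h, with 32.5 against 59.8 CPM. This animal was the lowest for GADD45G at all 5 time points, with 16.9 CPM at 0 h already. For GADD45B it was the lowest at 24 h, at 31.8 CPM, but stood at 115.8 CPM at 72 h, above the median of 108.7 CPM. GADD45GIP1 was highest in animal 206 at 24 h, with 29.6 against 23.0 CPM. U3 was highest in animal 107 at 0 h, with 0.502 against 0.13 CPM. ZFYVE26 was lowest in animal 107 at 48 h, with 21.9 against 28.3 CPM. NAA10 was highest in animal 206 at 48 h, with 34.0 against 29.5 CPM. CKAP2 was lowest in animal 201 at 6 h, with 1.6 against 2.48 CPM.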

How the results depend on the processing

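The log2 fold changes of GADD45B against 0 h kept their sign in the 7 other settings and the 7 fits that left out 1 animal. The latter gave 2.01 to 2.30 at 6 h, 1.88 to 2.18 at 24 h, 2.28 to 2.42 at 48 h and 2.44 to 2.82 at 72 h. The step from 6 h to 24 h, at -0.11, ranged from -0.33 to 0.0492 with 1 animal left out and was positive without animal 201 (0.00507) and without animal 206 (0.0492). GADD45G ranged from 0.58 to 0.75 at 6 h and from 0.47 to 0.71 at 24 h with 1 animal left out, and was 0.67 and 0.63 without the replicate block, below both calls. Without the block, 0 pathway genes were upregulated and 0 downregulated at 6 h, 0 upregulated at 24 h and 3 at 48 h. With 1 animal left out, 2 to 5 were upregulated at 24 h (2 without animal 101) and 3 to 5 at 48 h (3 without animal 107). Of the 10 genes most like GADD45B, 6 remained in the top 10 without subtracting animal means, and 5 over the 28 samples after 0 h, a setting chosen after seeing the data. Over all genes, those upregulated and downregulated without the block were 10 and 9 at 6 h and 22 and 79 at 24 h, against 51, 27, 106 and 139 with it. Thinned counts gave 21 upregulated at 6 h and 60 at 24 h. A filter at 1 CPM gave 70 upregulated and 92 downregulated at 24 h and 252 upregulated at 48 h. At 6 h, 26 were upregulated without animal 101, and 20 upregulated and 16 downregulated without animal 107. At 24 h, 69 were upregulated without animal 107 or 206. The causes were not tested. No alternative can add a list gene that has no name. The 7 animals leave intervals of about 0.5 on either side of each GADD45B step on the log2 scale.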

Other observations

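Genes with the most negative r after both animal and time point means had been removed were CKAP2 (-0.711), NAA10 (-0.661), CAD (-0.638), DGUOK (-0.636) and RNASEH2C (-0.635). GADD45GIP1 had r = 0.476 with GADD45B after animal means had been removed and -0.448 after both had been, while GADD45G had 0.839 and 0.609. Of the 2581 genes ranked, 35 had an r above 0.6 after both means had been removed.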
